A study of Homo sapiens with 7 samples.

Results

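The 39 genes described here encode proteins of homologous recombination and of the Fanconi anemia pathway. They were taken from a list of double-strand break, recombination and Fanconi genes, and all 39 were found by symbol among the 19978 genes of the deposited count table. HEK-293 is an immortalized human embryonic kidney line. The cells were kept for 48 h in medium of pH 7.4 with DMSO (control, 2 samples), in medium of pH 7.4 with 10 µM SRPIN340 and DMSO (2 samples) or in medium acidified to pH 6.6 with DMSO (acidosis, 3 samples). SRPIN340 is an inhibitor of the kinases that phosphorylate SR-rich splicing factors. DMSO, the solvent of the inhibitor, was thus present in every group. The study was concerned with the effect of acidosis on nuclear speckles and on alternative splicing, and with its likeness to a loss of SR protein phosphorylation, and these samples were sequenced to follow splicing and gene expression. Only the gene levels are described here.

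Homologous recombination repairs a broken chromosome by copying from the intact sister, and the sister exists only after the DNA has been replicated. The ends are sensed and trimmed to single strands by the MRE11 complex and nucleases, the BRCA proteins prepare these strands for the search for the sister, and paralog complexes and RAD54 proteins help the strand to invade and exchange. Fanconi proteins detect DNA strands that are linked to each other, ubiquitinate the FANCD2 and FANCI pair, and hand the lesion over to nucleases and to the recombination proteins, and the kinases ATM and ATR with their targets CHEK2 and CHEK1 halt the cell cycle meanwhile. Many of these genes are known to be transcribed mainly in dividing cells around S phase.

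Library totals lay between 13615816 and 24110460 estimated counts, and the lowest of them was acidosis replicate 2. Of all genes, 14863 were expressed highly enough to be tested, and these included all 39 members. Levels are given as CPM, counts scaled to a common library total, with the totals corrected for composition by the TMM method. The markers of HEK-293 were present in control, with VIM at 867 CPM, KRT8 at 297 CPM and LHX1 at 15.4 CPM, while the blood marker CD3E was at 0 and the endothelial marker CDH5 at 0.0180 CPM. Of 8 markers of other cell types, 3 were above 1 CPM in control, namely COL1A1 at 30.8, COL3A1 at 3.09 and TTN at 1.31 CPM, and in acidosis COL1A1 was at 62.3 and COL3A1 at 1.56 CPM. In acidosis 3 of the 6 HEK-293 markers were themselves called, PAX2 lower (6.78 to 1.82 CPM) and VIM (867 to 2710 CPM) and NEFM (22.8 to 71.8 CPM) higher. Of the other markers COL1A1 was called higher and, at low levels, PTPRC higher (0.158 to 0.714 CPM) and TTN lower (1.31 to 0.180 CPM), and their part in the results was not tested. In bulk RNA, fewer cells in a state of the cycle cannot be told apart from less RNA of a gene per cell. The samples of a group are called repeats, and p-values measure the spread between these samples and no more.

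In acidosis the members moved in both directions. Calls required an adjusted p under 0.05 in edgeR's quasi-likelihood test, with the Benjamini-Hochberg adjustment taken over all genes tested, together with a log2 fold change beyond 1 in either direction. By this rule 6 members were called lower (BRCA1, PALB2, BRIP1, RAD51D, NBN and FANCL), against 19.1% of all genes tested, and 3 were called higher (RAD54L, CHEK1 and FANCB), against 14.4%. At an adjusted p under 0.05 alone, 18 members fell (34.2% of all genes) and 12 rose (32.5%). The 30 members that passed in either direction are 76.9% of the list, beside 66.7% of all genes. Of the 9 others, RAD51B, XRCC3, RBBP8, BLM, ATM, ATR, FANCA, FANCG and EME1, each had a log2 fold change between -0.17 and 0.55. The median log2 fold change of the members was -0.12, and that of all genes tested was -0.05. The median size of the change, regardless of direction, was 0.79 among members and 0.74 among all genes. Among the members, the samples of acidosis lay wholly below those of control for 17 genes and wholly above for 12, together 29 of 39, beside 76.5% of all genes whose groups did not overlap. In the median size of the change and in the groups that did not overlap, the members were thus close to the background of a broad change. The share of members that fell at an adjusted p under 0.05 was above that of all genes. The share called higher was below it, and these differences were not tested.

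**Figure D1:**
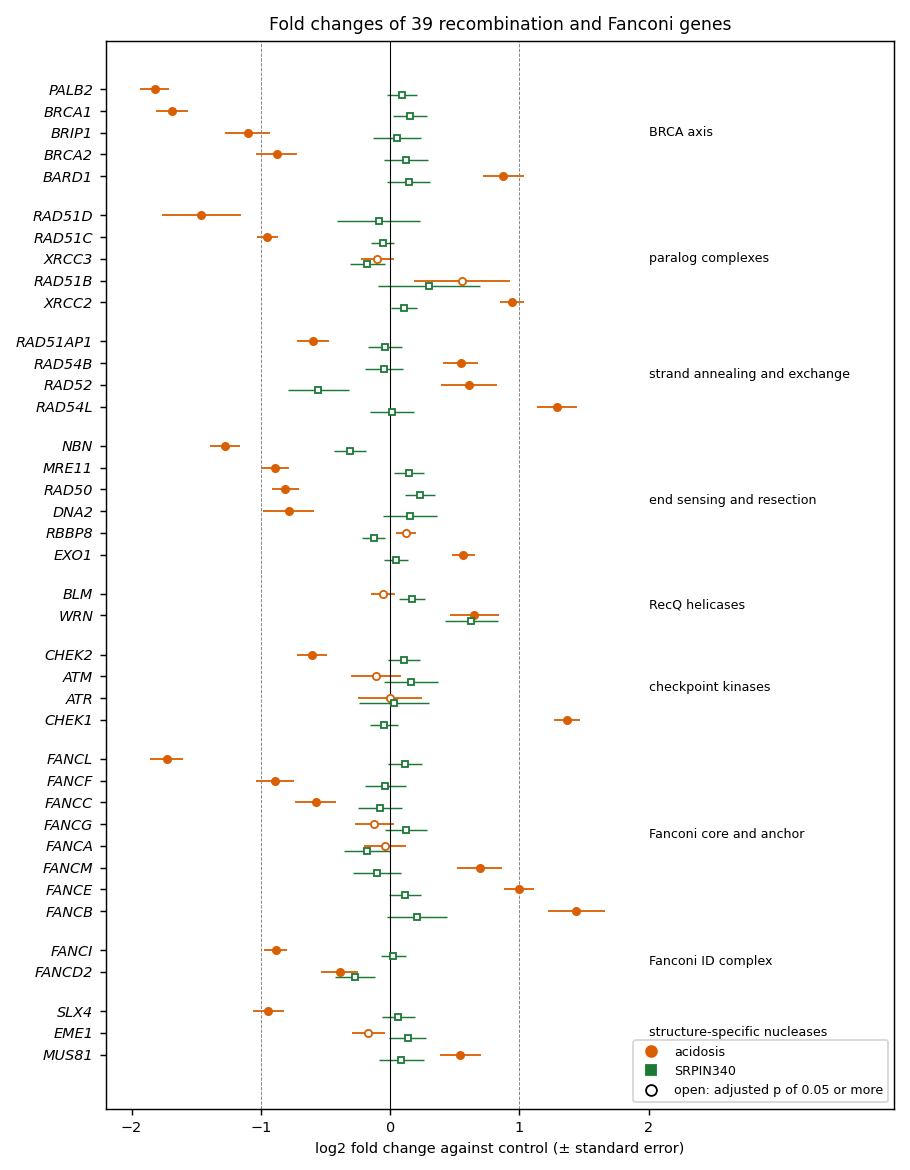
Log2 fold change against control (horizontal axis, with standard error bars) of the 39 members, grouped by role, for acidosis (circles) and SRPIN340 (squares). Filled symbols have an adjusted p under 0.05 and dashed lines mark a log2 fold change of -1 and 1. Acidosis values run from -1.82 for PALB2 to 1.44 for FANCB, whereas all SRPIN340 symbols are open.

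The promoters of the members were searched for 3 short motifs known from genes of the cell cycle, on both strands of the RefSeq windows (GRCh38.p14) from 250 bases before to 50 after a start. Windows were at hand for 34 members, and DNA2, NBN, FANCI, RAD54B and WRN had none. The E2F core GCGGGAA, which reads as TTCCCGC on the opposite strand, was found in 15 of the 34, or 44.1%, and in 6.55% of all 35116 windows (7.82% of 27305 genes). The CCAAT box, which reads as ATTGG on the opposite strand, was found in 15 members, also 44.1%, and in 34.6% of all windows (39.7% of genes), and the CHR element TTTGAA, which reads as TTCAAA on the opposite strand, in 3 members, 8.82%, and in 15.2% of all windows (18.2% of genes). In 0 member windows did a match of the E2F core overlap a match of the other motifs. Of the 15 members with the E2F core, 7 fell, 5 rose and 3 did not pass in acidosis, and of the 19 without it 8 fell, 5 rose and 6 did not pass. The motif was therefore present on both sides of the response. The 250 bases before the start are shown for FANCL (chr2:58241326-58241575, minus strand) and RAD51D (chr17:35119759-35120008, minus strand), which fell, and for RAD54L (chr1:46247438-46247687, plus strand, the first of its 2 windows) and RAD52 (chr12:949695-949944, minus strand), which rose, each 5′ to 3′ on the strand of the gene with the E2F core in capitals.
FANCL: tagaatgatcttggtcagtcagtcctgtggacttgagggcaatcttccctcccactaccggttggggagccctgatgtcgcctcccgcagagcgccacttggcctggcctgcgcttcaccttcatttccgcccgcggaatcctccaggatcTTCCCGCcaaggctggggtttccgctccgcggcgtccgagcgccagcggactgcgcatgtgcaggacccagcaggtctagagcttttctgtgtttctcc
RAD51D: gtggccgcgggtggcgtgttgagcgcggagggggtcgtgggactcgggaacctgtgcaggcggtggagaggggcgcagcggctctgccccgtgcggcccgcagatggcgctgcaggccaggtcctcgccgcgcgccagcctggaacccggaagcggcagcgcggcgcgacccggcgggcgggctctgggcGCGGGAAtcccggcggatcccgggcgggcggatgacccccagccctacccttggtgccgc
RAD54L: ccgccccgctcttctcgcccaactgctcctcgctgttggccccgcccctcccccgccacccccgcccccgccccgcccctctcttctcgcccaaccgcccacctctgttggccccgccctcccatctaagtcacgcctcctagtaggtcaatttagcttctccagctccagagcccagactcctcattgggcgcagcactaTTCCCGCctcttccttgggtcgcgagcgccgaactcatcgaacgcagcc
RAD52: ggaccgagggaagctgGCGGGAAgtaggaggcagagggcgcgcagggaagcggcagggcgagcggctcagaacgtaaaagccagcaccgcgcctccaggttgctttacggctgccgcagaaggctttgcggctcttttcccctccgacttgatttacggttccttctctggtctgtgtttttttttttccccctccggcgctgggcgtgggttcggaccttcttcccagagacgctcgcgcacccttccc
The match began 99 bases before the start in FANCL, 60 in RAD51D, 49 in RAD54L and 234 in RAD52. It read on the gene's strand in RAD51D and RAD52 and on the opposite strand in FANCL and RAD54L. A match of these letters is a description of the window and no measure of binding.

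Of the BRCA genes, 4 fell in acidosis and 1 rose. BRCA1, a ubiquitin ligase that promotes end trimming, was at 109 and 111 CPM in control, at 138 and 106 CPM with SRPIN340 and at 33.1, 38.0 and 31.4 CPM in acidosis. All 3 acidosis samples lay far below the other 4, and BRCA1 fell 3.22-fold (log2 fold change -1.69 ± 0.12 SE, adjusted p = 1.66e-06). PALB2, the link between BRCA1 and BRCA2, was at 39.2 and 37.2 CPM in control, 40.2 and 41.0 CPM with SRPIN340 and 11.8, 10.2 and 10.4 CPM in acidosis. It had the lowest log2 fold change of the members, -1.82 ± 0.11 (SE, adjusted p = 6.08e-07), and its acidosis samples were nearly equal. BRIP1, a helicase that binds BRCA1, was at 103 and 74.5 CPM in control, 90.3 and 93.2 CPM with SRPIN340 and 41.2, 50.2 and 32.7 CPM in acidosis. The groups did not overlap, but the control samples themselves differed, and the log2 fold change of -1.10 ± 0.17 (SE, adjusted p = 0.000323) came to -0.86 without control replicate 1 and -0.96 without acidosis replicate 3, under the fold limit. BRCA2, which acts on the trimmed single strands, was at 57.0 and 46.2 CPM in control, 60.9 and 51.2 CPM with SRPIN340 and 26.6, 34.1 and 23.8 CPM in acidosis. It fell 1.84-fold (log2 fold change -0.88 ± 0.16 SE, adjusted p = 0.000812), short of the fold limit, and came past it without control replicate 2 (-1.04) or without acidosis replicate 2 (-1.03).

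BARD1, the obligate partner of BRCA1 in the ubiquitin ligase, went the other way. It was at 27.7 and 33.4 CPM in control, 34.0 and 33.4 CPM with SRPIN340 and 48.0, 68.6 and 51.8 CPM in acidosis. Every acidosis sample was above the other 4, with a log2 fold change of 0.87 ± 0.16 (SE, adjusted p = 0.000779) that came to 0.30 (adjusted p = 0.12) when samples were scaled by total count only. The ratio of BRCA1 to BARD1 within a sample does not depend on that scaling. It was 3.92 and 3.34 in control, 4.06 and 3.18 with SRPIN340, and 0.690, 0.554 and 0.605 in acidosis, and it was thus lower in every acidosis sample than in any sample at pH 7.4. Per kilobase of transcript, mean levels in control were 15.5 CPM per kb for BRCA1 and 5.58 CPM per kb for BARD1, and in acidosis 4.82 and 10.3 CPM per kb.

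**Figure D2:**
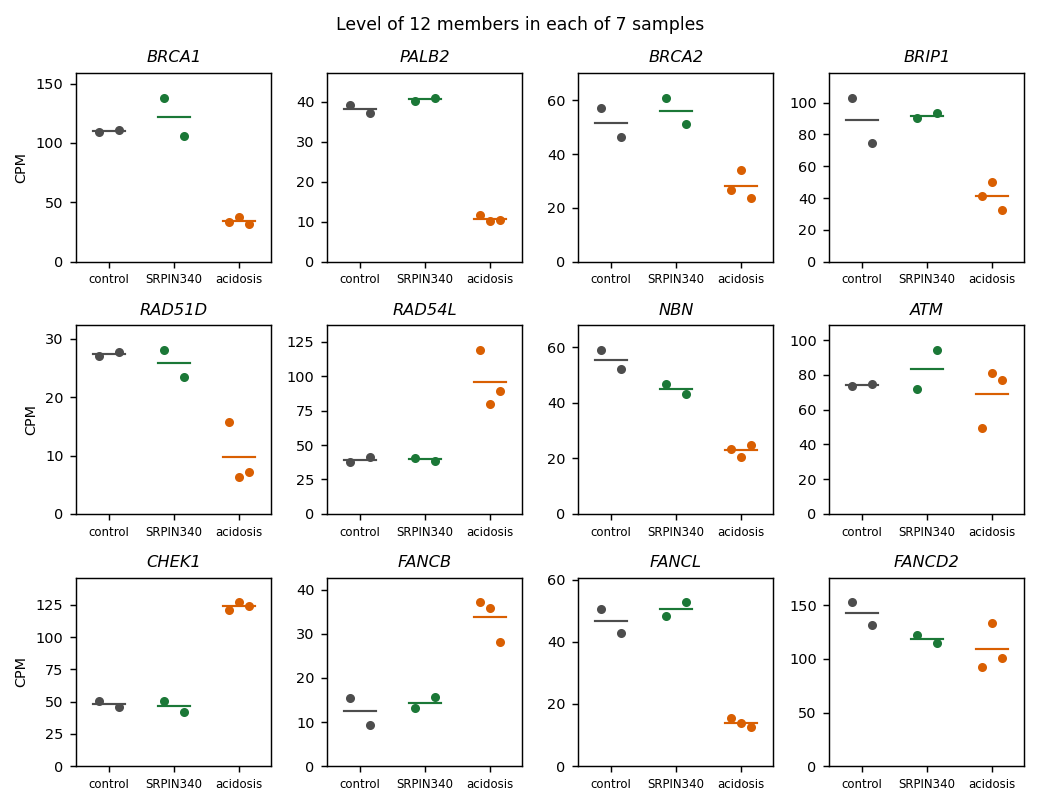
CPM (vertical axis, linear, from 0) of 12 members in each of the 7 samples, with a horizontal bar at the group mean. Acidosis samples are below all others for BRCA1, PALB2, BRCA2, BRIP1, RAD51D, NBN and FANCL, above all others for RAD54L, CHEK1 and FANCB, and overlap control for ATM and FANCD2.

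RAD51B, RAD51C, RAD51D, XRCC2 and XRCC3, whose proteins form small paralog complexes that assist strand exchange, were divided. RAD51D was at 27.1 and 27.8 CPM in control, 28.1 and 23.5 CPM with SRPIN340 and 15.7, 6.34 and 7.14 CPM in acidosis. The acidosis samples were all lowest but differed 2.48-fold among themselves, and RAD51D fell 2.75-fold (log2 fold change -1.46 ± 0.31 SE, adjusted p = 0.00204). RAD51D shares 893 exon bases, 8.6% of its total, with another annotated gene on the same strand (ENSG00000267618). The part of this overlap in the values of RAD51D was not tested. RAD51C, a member of both paralog complexes, fell 1.93-fold (log2 fold change -0.95 ± 0.08 SE, adjusted p = 5.85e-06), from 82.7 and 84.1 CPM in control to 42.7, 41.4 and 45.4 CPM. XRCC2, the direct partner of RAD51D, rose 1.92-fold (log2 fold change 0.94 ± 0.09 SE, adjusted p = 1.24e-05), from 37.6 and 36.3 CPM to 70.8, 68.9 and 73.3 CPM. The partners thus changed in opposite directions, and the ratio of XRCC2 to RAD51D was 1.39 and 1.30 in control and 4.50, 10.9 and 10.3 in acidosis. XRCC3, the partner of RAD51C, had a log2 fold change of -0.10 ± 0.13 (SE, adjusted p = 0.51). RAD51B was at 6.66 and 5.27 CPM in control and 5.17, 7.34 and 14.0 CPM in acidosis. Its acidosis samples spread on both sides of control, and its log2 fold change of 0.55 ± 0.37 (SE, adjusted p = 0.21) came to 0.85 (adjusted p = 0.044) without acidosis replicate 1 and to 0.06 without acidosis replicate 3. Of the exon bases of XRCC3, 48.4% are shared with KLC1 on the opposite strand, and whether strand was used in counting is not given in the sources used here.

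Of the genes for strand annealing and exchange, 3 rose and 1 fell. RAD54L, a motor protein that drives strand invasion, was at 37.8 and 41.1 CPM in control, 40.8 and 38.7 CPM with SRPIN340 and 119, 79.5 and 89.4 CPM in acidosis. All acidosis samples lay well above the rest, and RAD54L rose 2.44-fold (log2 fold change 1.29 ± 0.16 SE, adjusted p = 5.82e-05), which became 0.71 (adjusted p = 0.00227) with total count only. It shares 25.9% of its exon bases with LRRC41 on the opposite strand. Its relative RAD54B had a log2 fold change of 0.55 ± 0.14 (SE, adjusted p = 0.00558), which turned to -0.03 with total count only, and it shares 32.2% of its exon bases with FSBP on the same strand. RAD52, which anneals complementary single strands, was at 8.97 and 10.4 CPM in control, 8.29 and 4.90 CPM with SRPIN340 and 15.7, 14.4 and 14.2 CPM in acidosis. The acidosis samples were highest and the SRPIN340 samples lowest. The rise of RAD52 against control, 0.61 ± 0.22 (log2, SE, adjusted p = 0.032), did not pass without either control replicate (adjusted p = 0.18 and 0.073), without acidosis replicate 1 (0.074) or with total count only (0.90). RAD51AP1, which stimulates strand exchange, fell by 0.60 ± 0.12 on the log2 scale (SE, adjusted p = 0.00161).

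All subunits of the MRE11 complex, the sensor of broken ends, fell. NBN, the subunit that recruits ATM, was at 59.0 and 52.0 CPM in control, 46.6 and 43.1 CPM with SRPIN340 and 23.5, 20.4 and 24.8 CPM in acidosis. The acidosis samples were lowest and the SRPIN340 samples between them and control. NBN fell 2.42-fold in acidosis (log2 fold change -1.28 ± 0.12 SE, adjusted p = 6.67e-06). The nuclease MRE11 fell 1.86-fold (log2 fold change -0.89 ± 0.11 SE, adjusted p = 6.60e-05), from 75.2 and 62.6 CPM to 34.8, 41.3 and 35.5 CPM, and RAD50, the subunit that tethers the ends, fell 1.76-fold (log2 fold change -0.81 ± 0.10 SE, adjusted p = 8.04e-05), from 161 and 138 CPM to 78.6, 80.8 and 96.6 CPM. The ratio of MRE11 to RAD50 overlapped between the groups, at 0.467 and 0.453 in control and 0.443, 0.511 and 0.367 in acidosis. RAD50 shares 80.1% of its exon bases with another annotated gene on the same strand (ENSG00000283782), and with the counts of both summed the log2 fold change of RAD50 was -0.88.

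The enzymes that trim the ends did not move together. DNA2, a nuclease and helicase, fell 1.72-fold (log2 fold change -0.79 ± 0.20 SE, adjusted p = 0.00561), with acidosis samples at 20.1, 33.7 and 20.8 CPM below control at 45.2 and 40.0 CPM. EXO1, the other long-range nuclease, rose 1.48-fold (log2 fold change 0.57 ± 0.09 SE, adjusted p = 0.000265), from 79.1 and 85.2 CPM to 131, 113 and 120.0 CPM, a direction that turned to -0.01 with total count only. RBBP8 (CtIP), the cofactor of MRE11 at the start of trimming, was at 129 and 112 CPM in control and 132, 133 and 128 CPM in acidosis. Its groups overlapped, with a log2 fold change of 0.12 ± 0.08 (SE, adjusted p = 0.20) that turned to -0.45 (adjusted p = 0.000521) with total count only. Of the RecQ helicases, BLM, which dissolves crossed strands, had a log2 fold change of -0.06 ± 0.09 (SE, adjusted p = 0.60) with a 95% confidence interval from -0.24 to 0.12, and -0.63 (adjusted p = 0.00019) with total count only. WRN rose by 0.65 ± 0.19 (log2, SE, adjusted p = 0.013), from 30.0 and 24.9 CPM to 38.9, 53.0 and 38.0 CPM, but did not pass with total count only (0.08). Without control replicate 2, which left 1 control sample, the log2 fold change of WRN was 0.50.

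Among the checkpoint kinases, the CHEK genes parted. CHEK1, the target of ATR that restrains entry into mitosis, was at 50.2 and 45.6 CPM in control, 50.6 and 41.9 CPM with SRPIN340 and 121, 127 and 124 CPM in acidosis. The acidosis samples were tightly grouped above all others, and CHEK1 rose 2.59-fold (log2 fold change 1.37 ± 0.10 SE, adjusted p = 1.80e-06), or by 0.80 with total count only. CHEK2, the target of ATM, fell 1.52-fold (log2 fold change -0.61 ± 0.12 SE, adjusted p = 0.00109), from 28.4 and 33.1 CPM to 20.9, 20.7 and 19.0 CPM. The ratio of CHEK1 to CHEK2 was 1.77 and 1.38 in control and 5.78, 6.17 and 6.51 in acidosis. ATM was at 73.7 and 74.9 CPM in control, 72.0 and 94.3 CPM with SRPIN340 and 49.5, 81.2 and 76.8 CPM in acidosis. Only acidosis replicate 1 lay below control, the log2 fold change was -0.11 ± 0.19 (SE, adjusted p = 0.63, 95% confidence interval -0.49 to 0.27), and without that sample it turned to 0.09. With total count only it was -0.69 (adjusted p = 0.00975). ATR was at 35.7 and 37.9 CPM in control and 28.7, 54.8 and 27.6 CPM in acidosis. Here acidosis replicate 2 lay above control and the other two below, and without it the log2 fold change of ATR was -0.38 (adjusted p = 0.011).

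Acidosis replicate 2 was above the mean of the other acidosis samples for other long members as well, an observation made after the values were seen. Among the 10 members with the longest coding sequence, of 4251 bases or more, acidosis replicate 2 was above the mean of replicates 1 and 3 in 10, while it was so for 22 of all 39 members, for 57.1% of the 991 tested genes with a coding sequence at least as long and for 45.3% of all tested genes. In these 10 members it was between 1.01 (FANCA) and 1.95 (ATR) times that mean. Acidosis replicate 2 was also the library with the lowest total, whose part in this was not tested. Over the 39 members, Spearman's rho of the acidosis log2 fold change was -0.17 with transcript length, -0.07 with coding length, 0.07 with gene span and 0.04 with the GC content of the transcript. These are descriptions across genes that share the same libraries. The members had longer coding sequences (median 2331 bases, against 1407 among all tested genes), more exons (15 against 9) and a lower GC content (41.8% against 48.6%).

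The Fanconi core complex, which ubiquitinates FANCD2 and FANCI, held the second lowest and the highest fold changes of all members. FANCL, its catalytic ubiquitin ligase, was at 50.5 and 43.0 CPM in control, 48.4 and 52.8 CPM with SRPIN340 and 15.6, 14.0 and 12.5 CPM in acidosis. The acidosis samples lay far below the other 4, and FANCL fell 3.31-fold (log2 fold change -1.73 ± 0.13 SE, adjusted p = 1.79e-06). FANCB, which sits beside FANCL in the catalytic module of the complex, was at 15.5 and 9.37 CPM in control, 13.2 and 15.6 CPM with SRPIN340 and 37.2, 35.9 and 28.1 CPM in acidosis. Every acidosis sample was above the rest, although the control samples were apart, and FANCB rose 2.72-fold (log2 fold change 1.44 ± 0.22 SE, adjusted p = 0.000272), or by 0.87 with total count only. The ratio of FANCL to FANCB was 3.25 and 4.59 in control, 3.66 and 3.40 with SRPIN340, and 0.419, 0.391 and 0.443 in acidosis. Per kilobase of transcript, FANCL and FANCB were at 28.2 and 4.13 CPM per kb in control and at 8.47 and 11.2 CPM per kb in acidosis, so that their order was reversed.

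Of the other core and anchor genes, FANCC and FANCF fell and FANCE and FANCM rose. FANCF, an adaptor of the complex, fell 1.85-fold (log2 fold change -0.89 ± 0.15 SE, adjusted p = 0.000466), and FANCC fell 1.49-fold (log2 fold change -0.58 ± 0.16 SE, adjusted p = 0.00931). FANCE, which binds FANCC and contacts FANCD2, had a log2 fold change of 1.00 ± 0.11 (SE, adjusted p = 3.60e-05) and was just under the fold limit, with 19.5 and 18.6 CPM in control and 39.5, 34.7 and 39.9 CPM in acidosis. FANCM, the DNA translocase that anchors the complex, rose by 0.69 ± 0.17 (log2, SE, adjusted p = 0.00530), and did not pass with total count only (0.12). Without control replicate 2, which left 1 control sample, the log2 fold change of FANCM was 0.46. FANCA and FANCG, which bind each other, had log2 fold changes of -0.04 ± 0.17 and -0.12 ± 0.15 (SE), and neither passed (adjusted p = 0.84 and 0.49). FANCA shares 25.8% of its exon bases with ZNF276 on the opposite strand.

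Both targets of the complex fell. FANCI had the highest level of the members per kilobase of transcript in control, 62.8 CPM per kb, and fell 1.85-fold (log2 fold change -0.89 ± 0.09 SE, adjusted p = 1.62e-05), from 294 and 301 CPM to 147, 183 and 154 CPM. FANCD2 was at 153 and 132 CPM in control, 122 and 115 CPM with SRPIN340 and 92.3, 134 and 101 CPM in acidosis. One acidosis sample lay within the control range, so the groups overlapped. The log2 fold change of FANCD2, -0.39 ± 0.14 (SE, adjusted p = 0.033), did not pass without control replicate 1 (-0.29, adjusted p = 0.20), without acidosis replicate 1 (-0.28, adjusted p = 0.099) or without acidosis replicate 3 (-0.34, adjusted p = 0.096). The nucleases that act on the lesion differed too. SLX4, the scaffold of the nucleases, fell 1.92-fold (log2 fold change -0.94 ± 0.12 SE, adjusted p = 7.01e-05), from 26.1 and 23.9 CPM to 12.9, 13.7 and 12.4 CPM. MUS81 had a log2 fold change of 0.54 ± 0.16 (SE, adjusted p = 0.014), which turned to -0.03 with total count only. Without control replicate 1, which left 1 control sample, the value of MUS81 was 0.45. Its partner EME1 had a log2 fold change of -0.17 ± 0.13 (SE, adjusted p = 0.28).

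Per kilobase of the canonical transcript, control levels of the members ran from 2.75 CPM per kb for RAD51D, 3.21 for RAD52 and 3.41 for SLX4 up to 32.5 for RAD51C, 36.8 for RBBP8 and 62.8 for FANCI. On the same scale, CHEK1 went in acidosis from 11.6 to 30.0 CPM per kb. RAD51D came to 0.977 CPM per kb in acidosis, the lowest of any member on this scale. Its canonical transcript is 9966 bases long, of which 984 are coding. In CPM, without division by length, its acidosis mean of 9.74 was above those of FANCF (7.12) and RAD51B (8.84). In control it was at 27.4 CPM, above RAD52 at 9.70 CPM. The lowest estimated count of RAD51D in acidosis was 69.3.

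Since the direction of some members depended on the scaling, ratios between members were taken within each sample, for 14 pairs chosen after the values were seen. Acidosis and control did not overlap for 12 of the 14, and each of the 12 had an exact two-sided permutation p of 0.20 (0.233 after Benjamini-Hochberg adjustment over the 14), the smallest p that 3 samples against 2 allow. The pairs were picked for their values and 76.5% of single genes did not overlap either, so the count of 12 is a description of these pairs alone. The exceptions were BRCA1 to PALB2 and MRE11 to RAD50. BRCA1 and PALB2 fell in parallel, with ratios of 2.77 and 3.00 in control and 2.80, 3.73 and 3.02 in acidosis. The largest shifts of the mean log2 ratio were for FANCL to FANCB, XRCC2 to RAD51D and BRCA1 to BARD1, the last of them by -2.56.

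**Figure D3:**
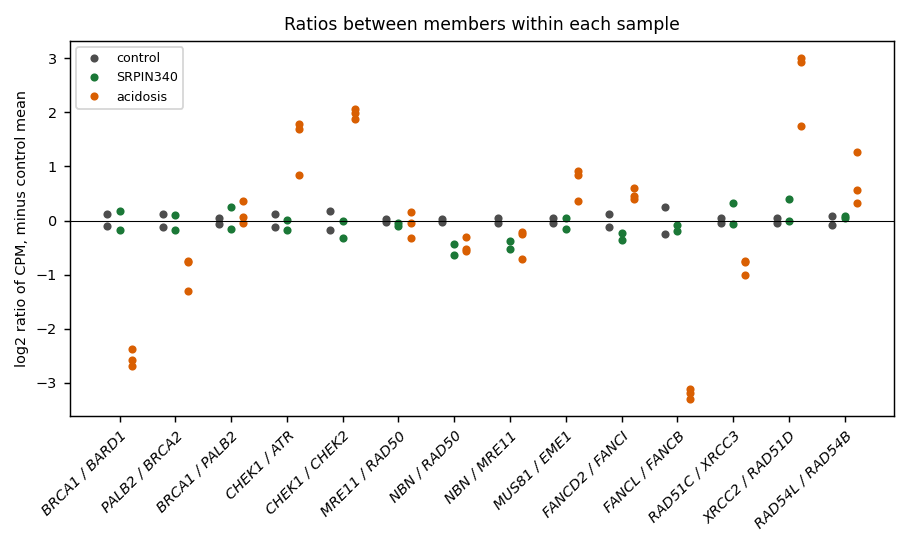
Log2 ratio of CPM between 2 members within each sample, minus the mean of control (vertical axis), for 14 pairs, with 1 point per sample. Acidosis points lie below -2 for BRCA1 to BARD1 and for FANCL to FANCB, above 1 for XRCC2 to RAD51D and CHEK1 to CHEK2, and around 0 for BRCA1 to PALB2 and MRE11 to RAD50.

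Scaling by total count only moved the median of all genes' log2 fold changes in acidosis from -0.05 to -0.63, and the members moved with it. The TMM factors were 0.78 to 0.80 in acidosis and 1.17 to 1.21 in the other samples. With total count only, 17 members were called lower and 0 higher, while 35% of all genes were called lower and 5.48% higher. At an adjusted p under 0.05, 25 members fell and 5 rose under this scaling, beside 55.0% and 16.2% of all genes. XRCC2, RAD54L, CHEK1, FANCB and FANCE were the 5 that still rose. XRCC3, RBBP8, BLM, ATM, FANCA, FANCG and EME1 passed as lower with total count only and not with TMM. Of the members, 23 passed under both scalings, and the order of the fold changes was kept, since the scaling shifts every gene by about the same amount. Relative to the median of all genes, the members' median was lower by less than 0.1 under either scaling.

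**Figure D4:**
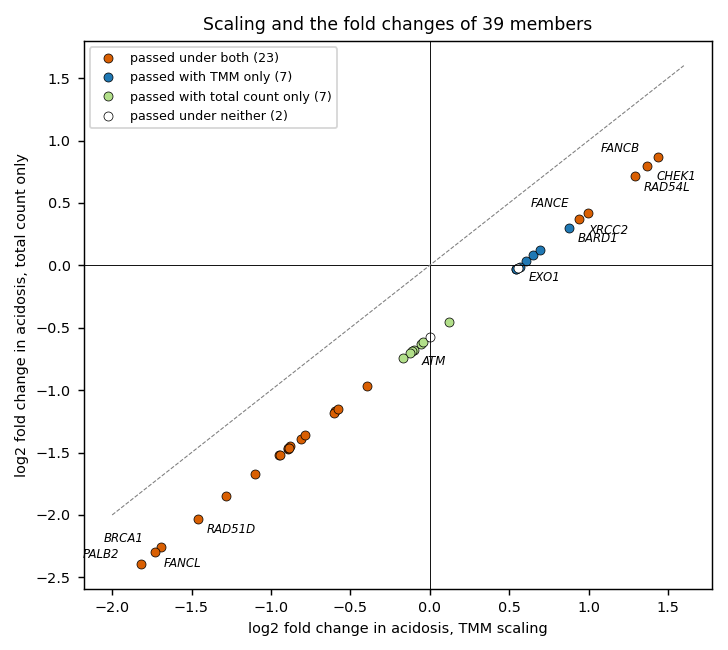
Log2 fold change of the 39 members in acidosis with TMM scaling (horizontal axis) and with total count only (vertical axis), coloured by the scalings under which the adjusted p was under 0.05; the dashed line marks equal values. The points lie on a line parallel to it, lower by about the shift of the median gene, and 23 members pass under both.

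SRPIN340 moved no member past the test. By edgeR's quasi-likelihood test 0 of 39 members were called, against 0.323% of all genes tested, and 0 had an adjusted p under 0.05, against 2.30% of all genes. At an unadjusted p under 0.05 there were 3 of 39, beside 2621 of the 14863 genes tested. DESeq2 gave 0 members at an adjusted p under 0.05, beside 3.6% of all genes lower and 2.02% higher. The median log2 fold change of the members was 0.06, and single values ran from -0.56 for RAD52 to 0.63 for WRN. The 3 members were WRN, at 35.2 and 49.8 CPM with SRPIN340 against 30.0 and 24.9 CPM in control (log2 fold change 0.63 ± 0.20 SE, adjusted p = 0.15), NBN (-0.31 ± 0.12 SE, adjusted p = 0.23) and RAD52 (-0.56 ± 0.24 SE, adjusted p = 0.27). Of the members, 12 of 39 had groups that did not overlap, beside 54.1% of all genes. For BRCA1 the log2 fold change with SRPIN340 was 0.15 ± 0.13 (SE), for CHEK1 -0.05 ± 0.11 and for FANCL 0.11 ± 0.13. All BRCA genes had values above 0, from 0.05 to 0.15, and did not pass. Of 28 markers of S phase, 25 had values below 0 with SRPIN340, and 5 of them fell at an adjusted p under 0.05. Of 28 markers of G2 and M phase, 27 were below 0 and 2 fell. Among all 14863 genes tested, 7356 were below 0 and 1.53% fell.

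Acidosis was also tested against SRPIN340 directly, a comparison that shares its acidosis samples with the one above. Here 8 members were called lower, against 19.7% of all genes, and 4 higher, against 14.9%. The members called lower were BRCA1 (-1.84), PALB2 (-1.90), BRIP1 (-1.15), RAD51D (-1.37), MRE11 (-1.04), RAD50 (-1.04), FANCL (-1.84) and SLX4 (-1.01 on the log2 scale). With the counts of the overlapping gene summed, RAD50 had a value of -0.89 (adjusted p = 1.29e-05) in this comparison and was no longer called. The overlapping gene alone had estimated counts of 1094.2 and 872.7 in control and 356.4 and 157.1 with SRPIN340. Those called higher were RAD54L (1.28), CHEK1 (1.42), FANCB (1.23) and RAD52 (1.16). The levels of these 12 members thus differed between the treatments by this test. For WRN, which had positive values in both treatments, acidosis and SRPIN340 differed by 0.02 on the log2 scale (adjusted p = 0.92).

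Other genes of the same and of neighbouring pathways, taken as lists, were also divided in acidosis. The shares over all genes tested were 34.2% fallen and 32.5% risen at an adjusted p under 0.05, with 19.1% called lower and 14.4% higher. Of 44 tested further genes of homologous recombination and the Fanconi pathway, 20 fell and 11 rose at an adjusted p under 0.05, with 9 called lower and 2 higher and a median log2 fold change of -0.23. SWSAP1 (-1.75) and FAAP24, a partner of FANCM (-1.67), were among those called lower. Of 28 break signalling genes 9 fell and 9 rose. WEE1, a kinase that holds back mitosis as CHEK1 does, rose from 64.8 ± 0.32 to 246 ± 12.7 CPM (SD, n = 2 and 3, log2 fold change 1.92, adjusted p = 8.99e-08), and BRCC3 (-1.90) and RIF1 (-1.29) fell. Of this list 3 genes were called lower and 5 higher, beside 19.1% and 14.4% of all genes. Of 19 genes of end joining, the route that competes with recombination, 10 fell and 6 rose, with XRCC1 (-1.39) and DCLRE1C (-1.36) among those called lower.

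**Figure D5:**
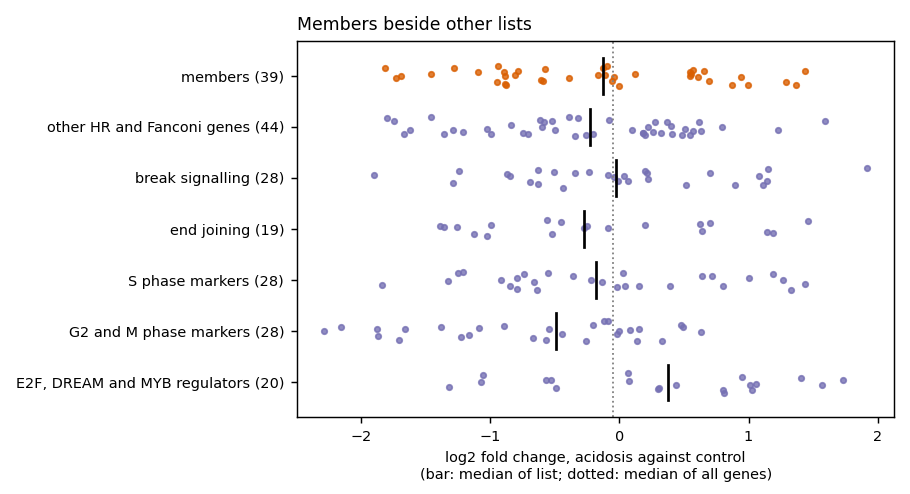
Log2 fold change in acidosis against control (horizontal axis) of each gene in the members and in 6 other lists (rows, number of tested genes in brackets), with a bar at the median of a list and a dotted line at the median of all genes tested, -0.05. Points of every list lie on both sides of 0. The markers of G2 and M phase have the lowest median, -0.49, and the E2F, DREAM and MYB regulators the highest, 0.37.

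The markers of the cell cycle moved beside the members, and their part in the members' changes was not tested. Their counts stand beside 34.2% of all genes that fell and 32.5% that rose at an adjusted p under 0.05. Calls stand beside 19.1% of all genes called lower and 14.4% called higher. Of 28 S phase markers, 14 fell and 9 rose in acidosis, with a median log2 fold change of -0.18. The lowest was PRIM1, the primase subunit (-1.84), and the highest UNG, a glycosylase that removes uracil from DNA (1.44). Of 28 markers of G2 and M phase, 16 fell and 4 rose, 10 were called lower and 0 higher, and the median was -0.49. KIF11, a motor of the spindle, fell from 227 ± 23.4 to 46.6 ± 3.66 CPM (SD, n = 2 and 3, log2 fold change -2.29, adjusted p = 5.16e-08), and AURKA (-2.16) and CENPF (-1.88) fell as well. Of 20 genes of the E2F, DREAM and MYB complexes, which regulate transcription in the cell cycle, 6 fell and 10 rose, with a median of 0.37. E2F7 (1.73), LIN52 (1.57) and E2F2 (1.41) rose most.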

How the data were processed

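Poly(A) RNA of 7 HEK-293 samples was sequenced as libraries. After trimming, the authors ran Salmon 1.5.1 on the Gencode transcriptome of GRCh38.p13 and used tximport to obtain genes, with an option that is not given in the sources used here. What they deposited are estimated counts for each gene, without normalization between samples. Of 19978 genes, 19977 matched GENCODE release 44, from which symbols, lengths and overlaps were taken.

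Estimated counts were rounded, filtered with filterByExpr and tested in 1 fit of all 7 samples (3 groups) with edgeR 4.0.16 in R 4.3.3, by the quasi-likelihood test with TMM scaling and Benjamini-Hochberg adjustment over all 14863 genes tested. The edgeR test was checked on simulated counts in which 200 of 14863 genes were changed 4-fold up or down. It recovered 97% of them in acidosis (14 false calls) and 96% with SRPIN340 (7 false calls). In the real acidosis samples 66.7% of genes passed, so this check does not cover the choice of scaling. Standard errors were taken from the test statistic. CPM were computed from TMM-scaled totals.

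Values in every sample were given for BRCA1, BRCA2, FANCD2, ATM and all called members, and for others where groups or partners are set side by side, chosen after their values were seen. Of each other list, up to 3 called genes with the largest change were named, and some results are not reported here. The members and lists were chosen with earlier results of these data known. Alternatives were DESeq2 1.42.0, other scalings and filters, only the groups compared, a replicate block and leaving out each sample in turn. The replicate numbers are not stated to pair samples. Splicing was not analysed here.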

Additional observations from a re-analysis of the deposited data

How the results depend on the processing

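With total count only in place of TMM, members called in acidosis came to 17 lower and 0 higher (35% and 5.48% of all genes), members that rose at an adjusted p under 0.05 to 5, and the median log2 fold change of the members to -0.70. Against SRPIN340 the calls came to 17 lower and 0 higher (37.0% and 5.21% of all genes), and the median with SRPIN340 to 0.10. RAD54L, CHEK1 and FANCB then kept their direction (0.71, 0.80 and 0.87) but lay under the fold limit. These shifts follow from the scaling itself. With the replicate block the members' median in acidosis was -0.23, and 5 members were called lower, beside 18.8% of all genes. BRIP1 came to -0.95, and RAD52 (adjusted p = 0.058) and FANCD2 (0.11) no longer passed in this fit. The numbers were not shown to pair samples, since deviations of same-numbered samples correlated at -0.04 (control and SRPIN340), -0.16 (control and acidosis) and 0.07 (SRPIN340 and acidosis). When 1 sample was left out, the members' median lay between -0.243 (without acidosis replicate 2) and -0.13 in acidosis and between 0.018 (without control replicate 2) and 0.0731 with SRPIN340. Counts of called members are not given for these fits, since leaving out a control or SRPIN340 sample left 1 sample in that group. ATM turned from -0.11 to 0.089 without acidosis replicate 1, and its cause was not tested. Under the 14 alternatives, 126 counts and medians stayed within 1.5 times or the spread between samples and 14 did not. Of the fold changes of the 12 members given in every sample, 158 kept their direction and side of the limit, 6 fell under it, 3 came past it (BRCA2) and 1 turned (ATM). The adjusted p of members that were never called, such as FANCD2 and ATM, does not enter this count, although it crossed 0.05 in some fits. Groups of 2 and 3 samples limit the precision of every value.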
